A study of Mus musculus with 9 samples.

Results

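This account concerns 10 genes of the desmosome, the spot-like junction that joins neighbouring keratinocytes, in bulk RNA from mouse dorsal skin: Dsc1, Dsc2, Dsc3, Dsg1a, Dsg1b, Dsg3, Jup, Pkp1, Dsp and Perp. Each is the row of the deposited count table that carries its symbol, and all 10 were found among 57180 rows and passed the low-count filter that left 17168 genes to test. They were chosen by measured values: Dsc1 and Perp had some of the smallest p-values on the lower side when UVB-hCOL3A1 skin was compared with UVB-Saline skin, and 8 further genes of the same junction were placed with them. Values from that comparison are therefore given as description, with no test.

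The skin came from BALB/c nude mice, which lack a thymus and a normal coat, and there were 3 groups of 3 libraries. The UVB-hCOL3A1 group was irradiated with UVB and received hCOL3A1, in a study that by its title delivers type III collagen through mRNA. The UVB-Saline group had the same irradiation and received saline, and the NoUVB group was not irradiated. Mice were exposed every second day for 8 weeks, first to 60 mJ/cm2, stated as 1 minimal erythemal dose, and at the end to 240 mJ/cm2, or 4 such doses. Collection is stated as day 28, which falls short of 8 weeks, and the sources used here do not say from which event that day was counted. They also give no dose or route of hCOL3A1, no age or sex, no account of what NoUVB skin received in place of saline, and no link between libraries and individual animals, so the p-values measure the spread between these libraries, which may be technical. All 9 libraries carry the same batch label.

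Desmosomes are built in layers. Desmocollins (Dsc) and desmogleins (Dsg) are the cadherins that cross the membrane and meet those of the next cell; plakoglobin (Jup) and plakophilins (Pkp) bind their tails inside the cell; and desmoplakin (Dsp) ties the plaque to keratin filaments. Perp is a membrane protein induced by p53 and p63 that is needed for firm desmosomes in mouse epidermis. In epidermis Dsg3 and Dsc3 are densest in the lower layers, whereas Dsg1 and Dsc1 are densest in the upper ones, so that the cadherin mixture changes as keratinocytes move outward.

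Estimated counts summed to between 7640172 and 12927411 per library. The ribosomal RNA row Rn18s-rs5 took 7.71% of NoUVB 2 and from 34.3% to 55.3% of the other 8 libraries. Levels are given as CPM, counts scaled to a common library total, after TMM scaling, which corrects for differences in composition. On the first principal component, which held 31.6% of the variance, UVB-Saline 3 (55.0) and UVB-hCOL3A1 3 (39.8) lay farthest to one side. The 7 basal and 8 suprabasal keratinocyte markers were all detected in every group, with Krt5 between 895 and 1530 CPM and Krt10 between 1037 and 2441 CPM in single libraries. The table holds no row for human COL3A1, so delivery could not be checked from it. Mouse Col3a1 was at 1814, 2006 and 1827 CPM in UVB-hCOL3A1, at 1272, 1510 and 1433 CPM in UVB-Saline and at 1172, 1201 and 1418 CPM in NoUVB.

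The promoters that RefSeq gives for the desmosome genes (GRCm38.p6, 250 bases before to 50 after the transcription start) were read for motifs, as description. Only 2 of the 10 genes matched an entry, too few to say what the 10 share. Both promoters are shown 5′ to 3′ on the strand of the gene, with the only motif match in capitals. Dsp starts within chr13:38151044-38151343 on the plus strand and Jup within chr11:100397741-100398040 on the minus strand.
Dsp: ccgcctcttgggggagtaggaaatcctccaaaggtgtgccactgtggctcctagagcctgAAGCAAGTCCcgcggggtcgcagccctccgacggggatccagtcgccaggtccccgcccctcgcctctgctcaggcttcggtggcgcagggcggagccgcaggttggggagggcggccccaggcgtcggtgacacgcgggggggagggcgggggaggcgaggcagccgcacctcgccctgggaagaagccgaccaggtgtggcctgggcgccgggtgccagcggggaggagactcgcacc
Jup: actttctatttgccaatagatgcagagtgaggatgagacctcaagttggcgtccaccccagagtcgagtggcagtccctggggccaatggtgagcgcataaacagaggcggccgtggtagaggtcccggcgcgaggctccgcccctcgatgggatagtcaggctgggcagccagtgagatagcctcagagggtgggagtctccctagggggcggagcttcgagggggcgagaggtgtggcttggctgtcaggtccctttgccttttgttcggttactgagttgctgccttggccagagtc

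Both windows were rich in G and C, at 73.0% for Dsp and 60.7% for Jup, against a median of 52.7% over 32851 mouse promoters of the same length. The Dsp window held 1 match to the p53 half-site, which starts at base 61 counted from the 5′ end of the window, and the Jup window held none. A match to that half-site on either strand was present in 8.36% of all promoters. Neither window held the AP-1 letters TGANTCA, present on either strand in 7.81% of promoters, or the grainyhead letters AACNGGT, present in 8.13%. No 2 of these matches overlapped in the windows shown, and a match describes the letters only.

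Per kilobase of the longest annotated protein-coding transcript, the genes ran in a fixed order in most libraries. Dsp, the linker to keratin, led with 223 ± 31.7 CPM per kb over the 9 libraries (SD), and Perp followed with 153 ± 31.8. Pkp1 (81.4 ± 13.6) and Jup (74.6 ± 7.87), the plaque proteins, came next. The cadherins were lower, with Dsc3 at 59.6 ± 6.19, Dsc1 at 55.8 ± 9.62, Dsg1a at 51.5 ± 9.77, Dsg1b at 21.0 ± 5.93 and Dsg3 at 15.6 ± 1.54 CPM per kb.

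Dsc2, the desmocollin best known from simple epithelia and heart, was far below the rest at 1.75 ± 0.219 CPM per kb. Its counts ran from 58 to 99 per library, against 16300 to 30328 for Dsp. Most neighbours in the order kept it in all 9 libraries, as Dsp over Perp, Dsg1a over Dsg1b and Dsg3 over Dsc2 did. Pkp1 lay above Jup in 8 libraries, Dsc3 above Dsc1 in 7 and Dsc1 above Dsg1a in 6, so the order of these neighbours was not the same in every library. Dsc1 stood below Dsc3 on average in UVB-hCOL3A1 (45.0 ± 3.55 and 51.9 ± 1.51 CPM per kb), above it in UVB-Saline (66.1 ± 4.33 and 64.4 ± 2.12) and below it in NoUVB (56.3 ± 2.09 and 62.4 ± 3.45; SD, n = 3 each). The plot of levels per transcript length shows this order library by library.

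**Figure D1:**
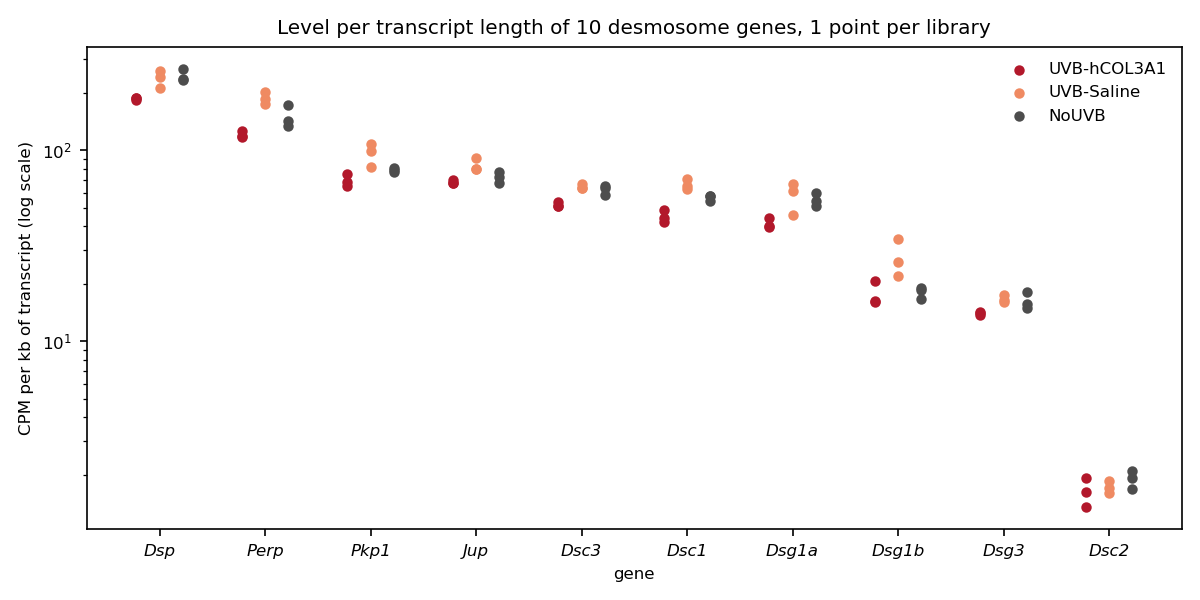
CPM per kb of the longest protein-coding transcript (log axis) for the 10 genes, ordered by their mean over 9 libraries; each point is 1 library, coloured by group. Dsp leads at a mean of 223, the cadherins of stratified epithelium sit between 15.6 and 59.6, and Dsc2 lies apart at 1.75.

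Dsc1, the desmocollin of the upper epidermis, had 180, 200 and 171 CPM in the UVB-hCOL3A1 libraries, 290, 255 and 265 CPM in UVB-Saline and 236, 220 and 234 CPM in NoUVB. The 3 groups did not overlap: UVB-Saline was highest, NoUVB intermediate and UVB-hCOL3A1 lowest in every library. In this bulk tissue, fewer cells of a type and less RNA per cell cannot be told apart.

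Perp, the p53- and p63-induced membrane protein, followed the same order without overlap. It had 231, 229 and 246 CPM in UVB-hCOL3A1, 396, 362 and 342 CPM in UVB-Saline and 276, 262 and 335 CPM in NoUVB. The gap between the lowest UVB-Saline library and the highest NoUVB library was narrow.

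Pkp1, the plakophilin that clusters desmosomal proteins in upper epidermis, was the other gene with that order. Its levels were 317, 304 and 351 CPM in UVB-hCOL3A1, 383, 460 and 501 CPM in UVB-Saline and 378, 358 and 370 CPM in NoUVB. Both gaps were narrow, with UVB-Saline 1 at 383 above NoUVB 1 at 378, and UVB-hCOL3A1 3 at 351 below NoUVB 2 at 358. This order, UVB-Saline above NoUVB above UVB-hCOL3A1 with no overlap, was met by 3 of the 10 genes and by 0.198% of the 17168 genes tested. It includes the comparison by which Dsc1 and Perp were picked, so nothing is read from that count.

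Dsp had 1794, 1798 and 1759 CPM in UVB-hCOL3A1, 2311, 2493 and 2039 CPM in UVB-Saline and 2555, 2262 and 2228 CPM in NoUVB. Here UVB-Saline and NoUVB overlapped and UVB-hCOL3A1 lay below both. Jup, which doubles as a relative of beta-catenin, had 216, 224 and 217 CPM in UVB-hCOL3A1, 255, 291 and 255 CPM in UVB-Saline and 246, 232 and 217 CPM in NoUVB. Its UVB-hCOL3A1 libraries overlapped with NoUVB and lay below every UVB-Saline library.

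Dsc3, the desmocollin of lower layers, had 286, 272 and 273 CPM in UVB-hCOL3A1, 337, 356 and 336 CPM in UVB-Saline and 338, 313 and 348 CPM in NoUVB. Dsg3, the desmoglein of lower layers and the antigen of pemphigus vulgaris, had 85.3, 87.5 and 88.8 CPM in UVB-hCOL3A1, 103, 99.2 and 109 CPM in UVB-Saline and 112, 97.5 and 92.4 CPM in NoUVB. Both were lowest in UVB-hCOL3A1, while their UVB-Saline and NoUVB libraries overlapped. Dsc2 had 7.55, 8.94 and 6.26 CPM in UVB-hCOL3A1, 7.90, 7.40 and 8.56 CPM in UVB-Saline and 9.66, 7.77 and 8.85 CPM in NoUVB, and all its groups overlapped.

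Dsg1a and Dsg1b are close copies of the single human desmoglein 1, and the counting could split their shared reads, so each is uncertain on its own. Dsg1a had 250, 226 and 228 CPM in UVB-hCOL3A1, 347, 380 and 261 CPM in UVB-Saline and 292, 309 and 341 CPM in NoUVB. Dsg1b had 64.0, 64.1 and 82.2 CPM in UVB-hCOL3A1, 87.1, 103 and 136 CPM in UVB-Saline and 75.0, 66.0 and 73.2 CPM in NoUVB. UVB-Saline 3 held the lowest Dsg1a and the highest Dsg1b of its group, and in it Dsg1b made up 34.3% of the pair, against 17.6% to 26.5% in the other 8 libraries.

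Summed, the pair had 314, 290 and 310 CPM in UVB-hCOL3A1, 434, 483 and 397 CPM in UVB-Saline and 367, 375 and 414 CPM in NoUVB. The sum was lowest in UVB-hCOL3A1, without overlap with either other group, and UVB-Saline and NoUVB overlapped. The third copy, Dsg1c, had fewer than 10 estimated counts in every library and was not tested. The plot of levels by library shows all 10 genes on their own scales.

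**Figure D2:**
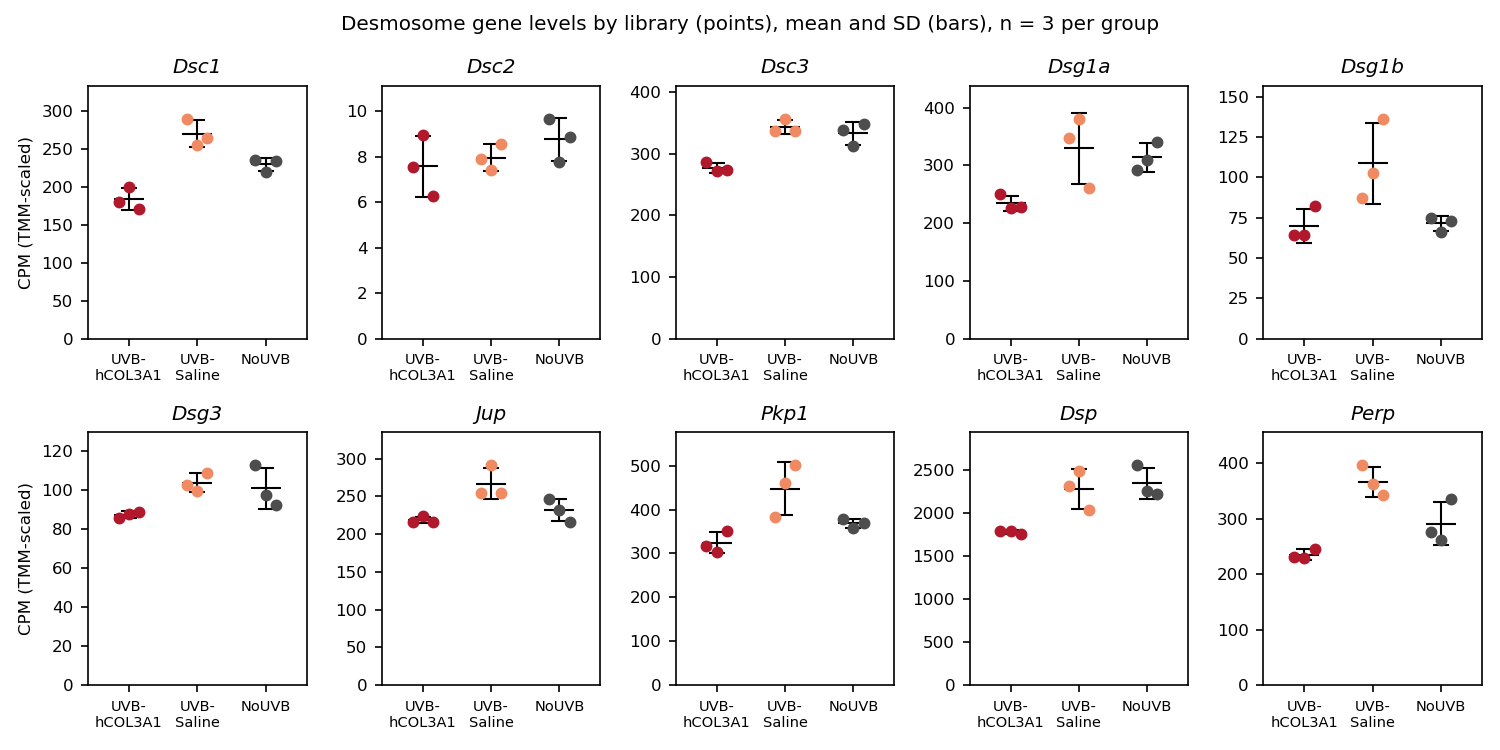
CPM of each of the 10 genes (1 panel each, axes from 0) in the UVB-hCOL3A1, UVB-Saline and NoUVB libraries; points are libraries, and bars give the mean and SD of 3. In Dsc1, Perp and Pkp1 the groups are stacked without overlap, and in Dsc2 all groups overlap.

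With both irradiated groups set against NoUVB, no difference was called in these genes. This comparison, of the mean of the UVB-hCOL3A1 and UVB-Saline groups with NoUVB, is the main test, since a difference between the irradiated groups does not enter it. None of the 10 genes passed an adjusted p of 0.05 by edgeR's quasi-likelihood test with Benjamini-Hochberg adjustment over all genes tested, where 0.0116% of all genes did. The median log2 difference was -0.07, with 4 genes positive and 6 negative, beside a median of 0.00 over all genes.

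The largest differences in it were those of Dsg1b (log2 difference 0.29 ± 0.14, SE; adjusted p = 0.519) and Dsp (-0.22 ± 0.09; adjusted p = 0.459). Dsp was the only one of the 10 with an unadjusted p under 0.05, a mark that 5.18% of all genes reached on the lower side and 5.2% on the higher. For Perp and Dsc1 the difference was 0.01 ± 0.09 (adjusted p = 0.979) and -0.05 ± 0.08 (0.870), as the irradiated groups lay on either side of NoUVB. In all 10 genes the 6 irradiated libraries overlapped with NoUVB; of all genes tested, 2.05% lay wholly higher and 2.43% wholly lower.

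UVB-Saline skin, taken alone against NoUVB, had 8 of the 10 genes on the positive side (median log2 difference 0.14, against 0.01 for all genes), and none passed the adjusted threshold, which 0.0175% of all genes did. Unadjusted, 5 genes were higher at p under 0.05, where 4.93% of all genes were (4.6% lower), and the same 5 lay above every NoUVB library, where 7.18% of all genes did (6.61% below). They were Dsg1b (0.61 ± 0.16, adjusted p = 0.319), Perp (0.33 ± 0.11, 0.398), Pkp1 (0.28 ± 0.11, 0.470), Dsc1 (0.23 ± 0.09, 0.482) and Jup (0.21 ± 0.09, 0.514), with edgeR's adjusted p in each case. The other 5 genes lay between -0.14 ± 0.17 (Dsc2) and 0.07 ± 0.13 (Dsg1a). Dsg1a, the more abundant copy of desmoglein 1, was not among the 5. Dsc1 and Perp were picked for lying lower in UVB-hCOL3A1 than in UVB-Saline, which favours high UVB-Saline libraries. Their direction here is thus partly built into the choice, and nothing is read from these counts.

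UVB-hCOL3A1 skin against NoUVB had all 10 genes on the negative side, with a median log2 difference of -0.24 against -0.01 for all genes. Again none passed, and in this comparison 0% of all genes were called lower and 0.0408% higher. Unadjusted, 6 genes were lower, where 5.52% of all genes were (6.29% higher), and 7 lay below every NoUVB library, where 10.7% of all genes did (10.7% above). The values were -0.42 ± 0.13 for Dsg1a (edgeR's adjusted p = 0.266), -0.40 ± 0.11 for Dsp (0.202), -0.32 ± 0.09 for Dsc1 (0.216), -0.31 ± 0.11 for Perp (0.315), -0.27 ± 0.08 for Dsc3 (0.259) and -0.21 ± 0.09 for Dsg3 (0.418). Pkp1, at -0.19 ± 0.11 (0.547), lay below every NoUVB library too. The choice of Dsc1 and Perp likewise favours low UVB-hCOL3A1 libraries, so nothing is read from these counts either.

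Jup (-0.08 ± 0.09) and Dsg1b (-0.03 ± 0.16) were close to 0 in that comparison and Dsc2 was at -0.20 ± 0.17; their groups overlapped. Dsp passed there with DESeq2 (adjusted p = 0.0224) and with edgeR without the low-count filter (0.0182), and Dsg1a passed when UVB-Saline was left out of the fit (0.0486); over all alternatives the adjusted p ran up to 1.00. Both comparisons with NoUVB share libraries with the one that picked Dsc1 and Perp, and they share NoUVB with each other.

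UVB-hCOL3A1 against UVB-Saline, the comparison behind the choice, is given as description. The log2 difference was -0.64 ± 0.11 for Perp, -0.63 ± 0.16 for Dsg1b, -0.55 ± 0.09 for Dsc1, -0.49 ± 0.13 for Dsg1a and -0.47 ± 0.11 for Pkp1 (SE). It was smaller for Dsp (-0.35 ± 0.11), Dsc3 (-0.31 ± 0.08), Jup (-0.29 ± 0.09) and Dsg3 (-0.25 ± 0.09), and near 0 for Dsc2 (-0.06 ± 0.17), whose sign changed when single libraries were left out. Dsc1, Dsg1a and Dsg1b, of the upper layers, had larger differences than Dsc3 and Dsg3, of the lower ones, and this contrast between layers was not tested. Dsc1 was picked by this comparison, and Dsg1a and Dsg1b may share reads, so nothing is read from that contrast. The ratios of Dsc1 to Dsc3 and of Dsg1a plus Dsg1b to Dsg3 within a library, given below, overlapped between these groups. In 9 of 10 genes every UVB-hCOL3A1 library lay below every UVB-Saline library, as in 8.33% of all genes (8.95% lay above). The plot of log2 differences sets the 3 comparisons side by side.

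**Figure D3:**
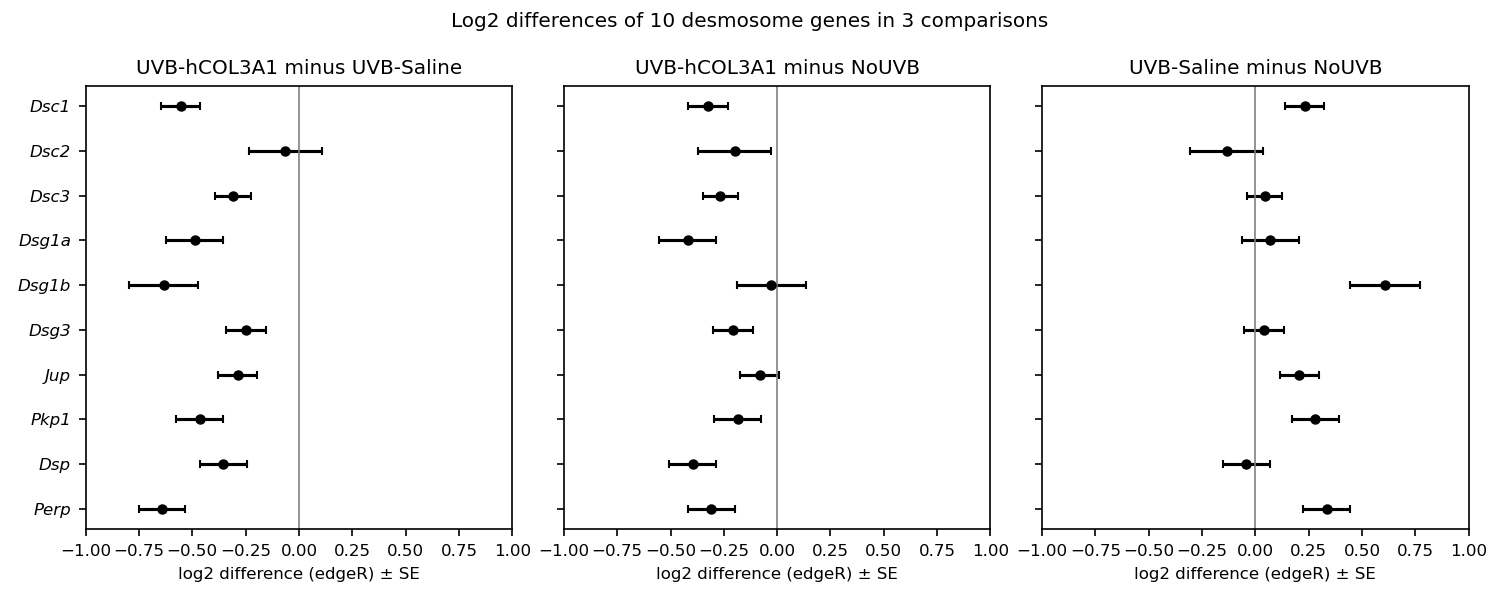
Log2 differences from edgeR (points) with SE (bars) for the 10 genes in UVB-hCOL3A1 minus UVB-Saline, UVB-hCOL3A1 minus NoUVB and UVB-Saline minus NoUVB. All 10 points are negative in the first 2 panels, and 8 are positive in the last; the panels share libraries and are not independent, and the Dsc2 point at -0.06 in the first changes sign with the libraries used.

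Most of the genes lay on the same side within single libraries. Relative to its own mean over the 9 libraries, each gene counted as high or low: 10, 9 and 9 of the 10 were low in the UVB-hCOL3A1 libraries, while 9, 9 and 8 were high in UVB-Saline and 8, 3 and 6 were high in NoUVB. No such count was made over all genes tested. The sides also include the comparison by which Dsc1 and Perp were picked, so nothing is read from these counts. Averaged over the 10, the log2 level relative to the NoUVB mean was -0.25, -0.23 and -0.24 in UVB-hCOL3A1, 0.13, 0.19 and 0.16 in UVB-Saline and 0.05, -0.07 and 0.02 in NoUVB. Dsg1b varied most within groups (SD 0.23 on the log2 scale, pooled over groups) and Dsc3 least (0.06). Dsp made up between 47.9% and 56.6% of the summed CPM of the 10 in every library.

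Ratios within a library do not depend on scaling. Those between cadherins were used to ask whether upper-layer and lower-layer genes parted, which the ratio of Pkp1 to Dsp does not address. The log2 ratio of Dsc1 to Dsc3 was -0.67, -0.44 and -0.67 in UVB-hCOL3A1, -0.22, -0.48 and -0.35 in UVB-Saline and -0.52, -0.51 and -0.58 in NoUVB. It was higher in UVB-Saline than in NoUVB in every library, by 0.18 (exact two-sided permutation p = 0.1, the smallest that 3 against 3 allows; adjusted over 9 ratio tests, 0.3). The ratio of UVB-hCOL3A1 overlapped with both other groups.

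The log2 ratio of Dsg1a plus Dsg1b to Dsg3 overlapped between all groups, at 1.80 ± 0.0753 in UVB-hCOL3A1, 2.08 ± 0.209 in UVB-Saline and 1.94 ± 0.229 in NoUVB (SD, n = 3 each). That of Pkp1 to Dsp was -2.46 ± 0.123 in UVB-hCOL3A1, -2.35 ± 0.294 in UVB-Saline and -2.67 ± 0.083 in NoUVB. It was above NoUVB by 0.26 over the 6 irradiated libraries (exact permutation p = 0.0833, adjusted 0.3) and by 0.21 in UVB-hCOL3A1 alone (exact p = 0.1, adjusted 0.3). None of the 9 ratio tests passed after adjustment, and only those of 6 against 3 libraries could have gone below 0.1 unadjusted.

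The genes whose pattern over the 9 libraries was most like that of Dsc1 were Wwc1, Limk2, S100a14, Itga3 and Mbd1, with a mean absolute difference in centred log2 CPM of 0.0603 to 0.0830. For Perp they were Snora65, Limk2, Ano9, Bnipl and Rtkn, at 0.0622 to 0.1004. Perp and Dsc1 differed from each other by 0.108, which ranked Dsc1 7th in likeness to Perp and Perp 32nd in likeness to Dsc1 among 6185 candidate genes. Both were chosen for being lower in the same comparison of these libraries, so a likeness between them is partly built into the choice and nothing is read from these ranks. Limk2, a kinase of actin turnover, was on both lists.

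Other desmosome and corneodesmosome genes were mostly negative, and none passed. Of 11 listed, 10 were tested, and the median log2 difference was -0.16 in UVB-hCOL3A1 against UVB-Saline, -0.34 in UVB-hCOL3A1 against NoUVB and -0.15 in UVB-Saline against NoUVB. Dsg4, the desmoglein of hair and upper epidermis, had 43.2, 45.9 and 21.2 CPM in UVB-hCOL3A1, 71.9, 38.2 and 13.8 CPM in UVB-Saline and 67.04, 66.98 and 51.7 CPM in NoUVB. It was lowest in UVB-Saline 3 and next lowest in UVB-hCOL3A1 3, and its log2 difference from NoUVB was -0.75 ± 0.55 in UVB-hCOL3A1 (edgeR's adjusted p = 0.647), without overlap, and -0.58 ± 0.55 in UVB-Saline (0.790), with overlap. Ppl, periplakin, a plakin that links desmosomes to the cornified envelope, had 261, 293 and 254 CPM in UVB-hCOL3A1, 369, 345 and 255 CPM in UVB-Saline and 458, 402 and 398 CPM in NoUVB. Every irradiated library lay below every NoUVB library, and the log2 difference was -0.64 ± 0.14 in UVB-hCOL3A1 (edgeR's adjusted p = 0.145) and -0.38 ± 0.14 in UVB-Saline (0.438). Evpl, its partner envoplakin, and Pkp3, another plakophilin, were at -0.39 ± 0.11 and -0.40 ± 0.11 in UVB-hCOL3A1 against UVB-Saline (adjusted p = 0.260 for both), without overlap.

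Keratins, which desmosomes anchor, were mixed in direction against NoUVB and mostly negative in UVB-hCOL3A1 against UVB-Saline. Of 8 tested, 4 were positive and 4 negative in UVB-hCOL3A1 against NoUVB (median -0.14). In UVB-Saline against NoUVB 5 were positive and 3 negative (median 0.14). In UVB-hCOL3A1 against UVB-Saline 2 were positive and 6 negative (median -0.24), and none passed in any comparison. Krt1, the main suprabasal keratin, had 1267, 1135 and 2024 CPM in UVB-hCOL3A1, 1360, 2397 and 2437 CPM in UVB-Saline and 692, 956 and 1306 CPM in NoUVB. Its log2 difference in UVB-Saline against NoUVB was 1.07 ± 0.32 (edgeR's adjusted p = 0.373). Krt77, another keratin of the suprabasal epidermis, had 257, 384 and 181 CPM in UVB-hCOL3A1, 309, 446 and 40.001 CPM in UVB-Saline and 544, 500 and 608 CPM in NoUVB. It lay below NoUVB in every irradiated library, opposite in sign to Krt1, at -1.01 ± 0.73 in UVB-hCOL3A1 (0.643) and -1.05 ± 0.73 in UVB-Saline (0.706), and was lowest in UVB-Saline 3. Krt14, the partner of Krt5 in basal cells, and Krt78 were at -0.70 ± 0.41 (0.567) and -0.66 ± 0.22 (0.338) in UVB-hCOL3A1 against UVB-Saline, with overlap. Krt15, a keratin of basal and bulge cells, lay below NoUVB in every irradiated library, at -0.85 ± 0.28 in UVB-hCOL3A1 against NoUVB (0.296).

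Other junctions were examined beside the desmosome, and no gene in any of the lists passed in any comparison. Adherens junction genes had a median log2 difference of -0.16 in UVB-hCOL3A1 against UVB-Saline and -0.19 in UVB-hCOL3A1 against NoUVB (12 tested), tight junction genes -0.13 and -0.37 (14 tested), gap junction genes -0.35 and -0.55 (7 tested) and hemidesmosome genes -0.22 and -0.14 (9 tested). The 10 desmosome genes had -0.41 and -0.24 in the same order. Dsc1 and Perp were picked by the first comparison, and the second shares its UVB-hCOL3A1 libraries, so the lists are not ranked. No test of these differences between lists was made. Nectin4, an adhesion partner at adherens junctions, stood at -0.44 ± 0.16 against UVB-Saline (edgeR's adjusted p = 0.354) and Nectin1, its relative, at -0.31 ± 0.11 (0.353).

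The hemidesmosome genes Dst, a plakin that ties keratin to the basement membrane side, and Col17a1, a transmembrane collagen, had negative differences from NoUVB that did not pass. Dst had 803, 748 and 832 CPM in UVB-hCOL3A1, 727, 928 and 780 CPM in UVB-Saline and 1093, 1070 and 1013 CPM in NoUVB. Every irradiated library lay below NoUVB, at -0.41 ± 0.11 in UVB-hCOL3A1 (edgeR's adjusted p = 0.193) and -0.38 ± 0.11 in UVB-Saline (0.352). Col17a1 was at -0.44 ± 0.11 in UVB-hCOL3A1 against NoUVB (0.184), without overlap. Itga6, an integrin of the same junction, was at -0.46 ± 0.15 in UVB-hCOL3A1 against UVB-Saline (0.332) and 0.37 ± 0.15 in UVB-Saline against NoUVB (0.491), and Cd151, a tetraspanin, at 0.30 ± 0.15 in UVB-hCOL3A1 against UVB-Saline (0.490).

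In the remaining junction lists the largest differences were mostly negative and their groups mostly overlapped. Against NoUVB, UVB-hCOL3A1 skin had Cgn, the tight junction protein cingulin, at -0.76 ± 0.28 (edgeR's adjusted p = 0.341, without overlap), the claudin Cldn23 at -0.58 ± 0.67 (0.782), the cadherin Cdh3 at -0.38 ± 0.23 (0.562), and the connexins Gjb2 and Gjb6 at -0.63 ± 0.28 (0.427) and -0.64 ± 0.29 (0.419). UVB-Saline skin against NoUVB had Cldn12 at -0.54 ± 0.27 (0.587), the connexin Gja1 at -0.33 ± 0.27 (0.747) and Ajuba, a partner of catenins, at 0.25 ± 0.11 (0.512, above every NoUVB library). Afdn, which encodes afadin, was at -0.28 ± 0.14 in irradiated skin against NoUVB (0.532). UVB-hCOL3A1 against UVB-Saline had Gjb5 at -0.58 ± 0.25 (0.428) and Tjp3 at -0.42 ± 0.22 (0.513).

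Perp is a p53 target, and 15 tested p53 target genes had a median log2 difference of -0.18 in UVB-hCOL3A1 against UVB-Saline and 0.23 in UVB-Saline against NoUVB. In UVB-hCOL3A1 against NoUVB their median was 0.09, with 9 positive and 6 negative, while Perp was at -0.31 ± 0.11. None of the 15 passed in any comparison, and a part of p53 in the Perp values was not tested. Cdkn1a, the cell cycle inhibitor p21, had 50.3, 54.0 and 48.4 CPM in UVB-hCOL3A1, 70.2, 61.7 and 63.0 CPM in UVB-Saline and 49.1, 50.5 and 53.4 CPM in NoUVB. UVB-Saline lay above both other groups in every library, and the log2 difference of UVB-hCOL3A1 from UVB-Saline was -0.35 ± 0.09 (edgeR's adjusted p = 0.232). Aen, a p53-induced nuclease, was at -0.33 ± 0.12 in the same comparison (0.370), while Ccng1, cyclin G1, was at 0.41 ± 0.15 in UVB-hCOL3A1 against NoUVB (0.336). Eda2r, a receptor, and Bax, a driver of cell death, were at 0.55 ± 0.28 (0.589) and 0.45 ± 0.27 (0.646) in UVB-Saline against NoUVB.

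Transcription factors of the epidermis had negative differences in UVB-hCOL3A1 against NoUVB in 12 of 13 genes, with a median log2 difference of -0.32, and none passed. Trp63, which encodes p63, the other known inducer of Perp, had 196, 206 and 183 CPM in UVB-hCOL3A1, 233, 213 and 196 CPM in UVB-Saline and 273, 268 and 265 CPM in NoUVB. Both irradiated groups lay below NoUVB in every library, by -0.46 ± 0.09 in UVB-hCOL3A1 (edgeR's adjusted p = 0.126) and -0.33 ± 0.09 in UVB-Saline (0.341). Grhl3, a grainyhead factor of the barrier, was at -0.57 ± 0.25 in UVB-hCOL3A1 against UVB-Saline (0.437). Gata3 was at -0.59 ± 0.15 in UVB-hCOL3A1 against NoUVB (0.184) and -0.33 ± 0.15 in UVB-Saline against NoUVB (0.523).

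Among 11 tested genes of desmosome turnover and calcium handling, 10 were negative in UVB-hCOL3A1 against UVB-Saline (median -0.16), and none passed. The envelope cross-linkers Tgm1 and Tgm5 had the largest differences, at -0.55 ± 0.15 (edgeR's adjusted p = 0.255) and -0.58 ± 0.21 (0.357). Tgm5 was also at 1.12 ± 0.22 in UVB-Saline against NoUVB (0.217), and the proteases Klk5 and Klk6 were at 0.38 ± 0.22 in UVB-Saline against NoUVB (0.636) and 0.26 ± 0.37 in irradiated skin against NoUVB (0.836). Of the early response genes, which react to handling and dissection, 13 of 13 were negative in UVB-hCOL3A1 against NoUVB (median -0.62) and 12 of 13 in UVB-Saline against NoUVB (median -0.49), and none passed. Fos and Fosb were at -1.37 ± 0.55 (edgeR's adjusted p = 0.391) and -1.60 ± 0.66 (0.406) in UVB-hCOL3A1 against NoUVB and at -1.24 ± 0.54 (0.545) and -1.69 ± 0.66 (0.497) in UVB-Saline against NoUVB, with 159 and 82.3 CPM in NoUVB 3. Junb and Hspa1a were at -0.40 ± 0.17 (0.426) and -0.40 ± 0.21 (0.498) in UVB-hCOL3A1 against UVB-Saline. The part of handling in the desmosome values was not tested.

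Markers of several cell types differed in the comparison that picked Dsc1 and Perp, and their part in the desmosome values was not tested beyond a scaling to keratinocyte markers. In UVB-hCOL3A1 against UVB-Saline, the median log2 difference was -0.26 over 7 basal, -0.20 over 8 suprabasal and -0.27 over 8 granular keratinocyte markers. It was 0.36 over 7 fibroblast, 1.03 over 6 adipocyte, 1.17 over 7 skeletal muscle, 0.29 over 6 endothelial and 0.61 over 5 macrophage markers. No marker in these lists passed the adjusted threshold, and none of the lists had a gene at 0 in a whole group. The summed level of the 7 basal markers ranged from 2325 to 2843 CPM in UVB-hCOL3A1, 2380 to 4562 in UVB-Saline and 2582 to 2742 in NoUVB. That of the 7 fibroblast markers ranged from 5328 to 6564 CPM in UVB-hCOL3A1, 4289 to 4493 in UVB-Saline and 4670 to 5604 in NoUVB.

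Against NoUVB, the markers of hair follicle and sheath were negative in 10 of 10 genes in both irradiated groups, with a median log2 difference of -0.74 in UVB-hCOL3A1 and -0.55 in UVB-Saline. Their mean log2 level relative to NoUVB was -0.45, -0.33 and -1.70 in UVB-hCOL3A1, 0.32, -0.55 and -2.39 in UVB-Saline and 0.26, 0.18 and -0.44 in NoUVB. It was thus lowest in UVB-Saline 3 and UVB-hCOL3A1 3, the 2 libraries at the end of the first principal component, and UVB-Saline 1 lay above every NoUVB library. Melanocyte markers had medians of -0.68 in UVB-hCOL3A1 and -0.42 in UVB-Saline, Schwann cell markers -0.69 in UVB-hCOL3A1 and -0.48 in UVB-Saline, and adipocyte markers -0.0037 in UVB-hCOL3A1 and -1.10 in UVB-Saline. No gene of these 4 lists passed the adjusted threshold. Their part in the desmosome differences from NoUVB was not tested.

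The mean log2 level of the 15 basal and suprabasal markers, relative to NoUVB, was -0.33, -0.14 and -0.11 in UVB-hCOL3A1, -0.10, 0.19 and -0.10 in UVB-Saline and -0.09, -0.05 and 0.14 in NoUVB. The groups overlapped for NoUVB and UVB-Saline, and every UVB-hCOL3A1 library lay below the other 6. The gap was very narrow, with UVB-hCOL3A1 3 at -0.1099 and UVB-Saline 3 at -0.1013. The plot of marker lists by library sets these beside the desmosome genes.

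**Figure D4:**
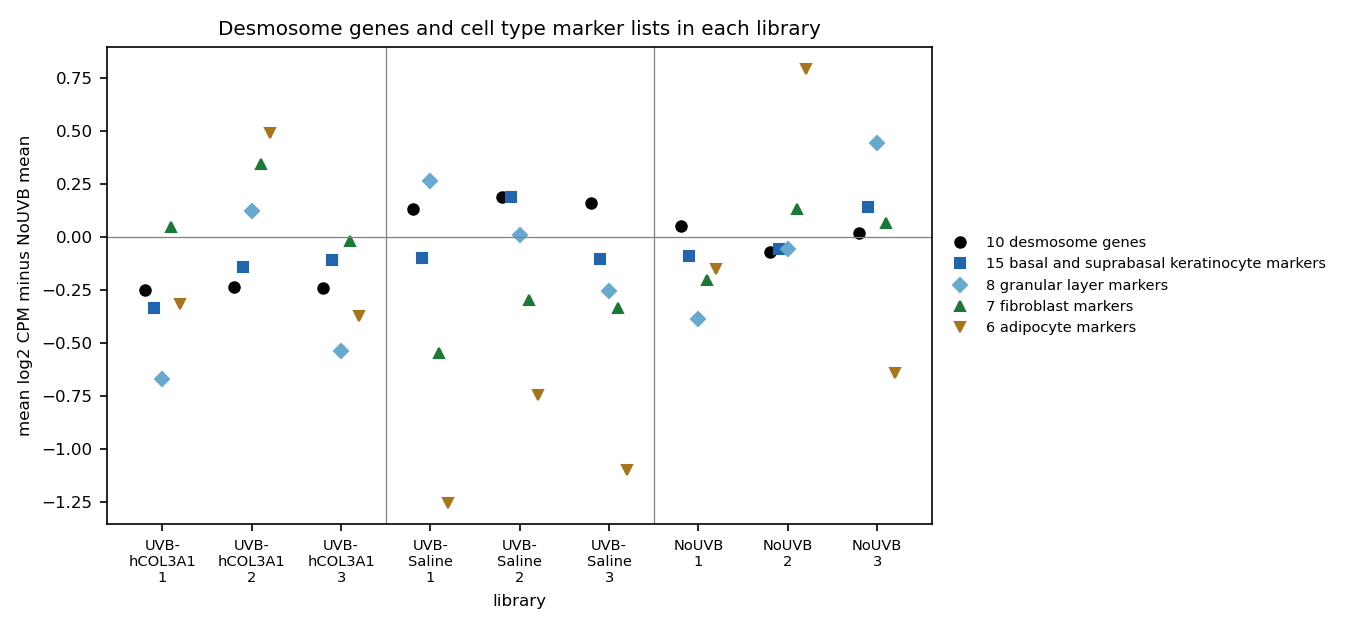
Mean log2 CPM relative to the NoUVB mean (vertical axis) in each of the 9 libraries, for the 10 desmosome genes and 4 cell type marker lists. The desmosome genes lie at -0.25 to -0.23 in UVB-hCOL3A1 and at 0.13 to 0.19 in UVB-Saline, with less spread than the marker lists.

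When libraries were scaled so that the 15 keratinocyte markers had the same mean in each, a choice made after seeing the data, the differences between UVB-hCOL3A1 and UVB-Saline of all genes moved upward by about the same amount. They were -0.46 ± 0.16 for Perp, -0.46 ± 0.19 for Dsg1b and -0.37 ± 0.16 for Dsc1, with Pkp1 and Dsg1a at -0.28, Dsp at -0.16, Dsc3 at -0.12, Jup at -0.09 and Dsg3 at -0.06, and Dsc2 at 0.12. The number of genes whose UVB-hCOL3A1 libraries all lay below UVB-Saline was 3 (Dsg1b, Pkp1 and Perp), where 1.33% of all genes did so under this scaling, and the Dsc1 groups then overlapped. The median was -0.22 over the 10 genes and 0.17 over all genes. A scaling of this kind changes every gene of a library by the same factor, so it leaves the distance between the 10 genes and the rest as it was by construction and does not bear on it. Against NoUVB, 7 of 10 genes were negative in UVB-hCOL3A1 under this scaling (median -0.04, all genes 0.19). The plot of both scalings shows each gene.

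**Figure D5:**
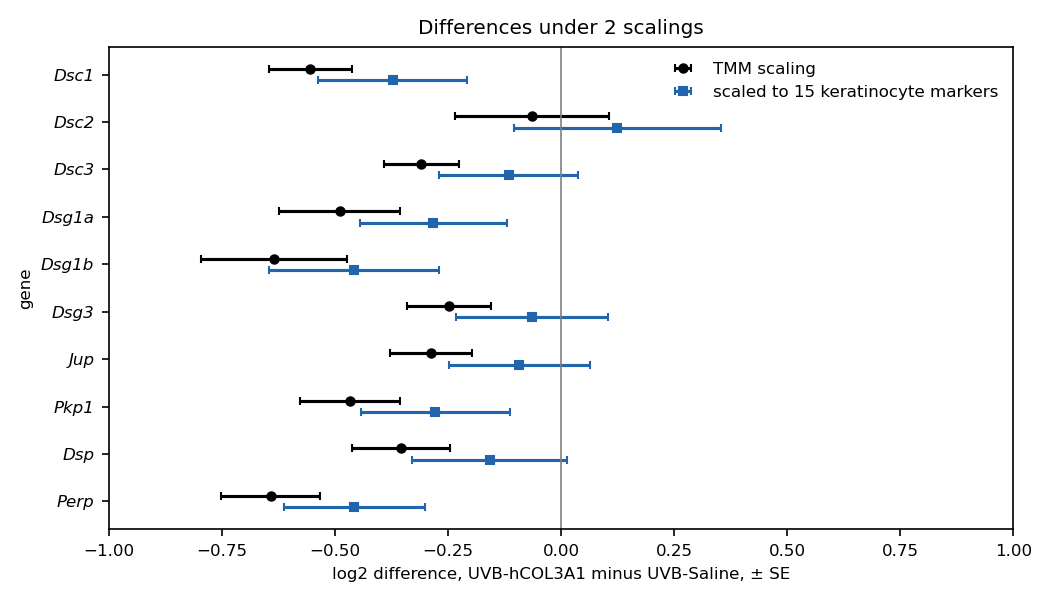
Log2 difference of UVB-hCOL3A1 minus UVB-Saline with SE for the 10 genes, under TMM scaling (circles) and under scaling to 15 keratinocyte markers (squares). The second scaling moves all genes upward by about the same amount, so that Perp lies at -0.46 in place of -0.64, Dsg3 at -0.06 in place of -0.25 and Dsc2 at 0.12 in place of -0.06; the spacing between genes is nearly the same in both.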

How the data were processed

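Total RNA of dorsal skin was sequenced as 150 bp read pairs, per the labels' protocols. The authors deposited estimated counts per gene (RSEM-like, 11.1% to 14.0% of them not whole in each library); per the submitters' processing notes, RSEM 1.3.3, STAR 2.7.11b, Bowtie2 2.5.4, fastp 0.23.4 and DESeq2 1.44.0 were used with the build GRCm39, in an order they leave out. No annotation release or strand setting is given. Estimated counts are split between near-identical genes such as Dsg1a and Dsg1b, and reads of a gene and an overlapping antisense gene cannot be told apart without strand.

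Counts were rounded and tested with edgeR 4.0.16 in R 4.3.3: TMM scaling, the default low-count filter, a robust quasi-likelihood fit of all 9 libraries (6 residual degrees of freedom), and Benjamini-Hochberg adjustment over 17168 genes. The 525 rows with an ID and no symbol (0.0384% of counts) were kept. Log2 CPM used a prior count of 2 and ratios an added count of 0.5. Ratios were compared with exact two-sided permutation tests over libraries. Alternatives were other scalings and filters, DESeq2 1.42.0, limma 3.58.1, fewer rows or groups, a replicate block and leaving out libraries; a scaling to keratinocyte markers was added after seeing the data. The code was tested on simulated data. Text names all 10 genes, the 2 list members with the largest absolute difference in each comparison, and the 5 genes most like Dsc1 and Perp among genes averaging 4 or more in log2 CPM, leaving out predicted genes. One gene that this rule names is not reported here. The members and lists were chosen with earlier results of these data known. Levels per kb used GENCODE M21 transcript lengths of GRCm38. Libraries of a group differed by more than sampling noise (chi-square per degree of freedom 8.18 to 250). The row Rn18s-rs5 was among those counted. The value of 250 came from NoUVB 1 and NoUVB 2, where that row took 55.3% and 7.71% of counts.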

Additional observations from a re-analysis of the deposited data

How the results depend on the processing

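Counts of genes called are given in the order irradiated against NoUVB, UVB-Saline against NoUVB, UVB-hCOL3A1 against NoUVB and UVB-hCOL3A1 against UVB-Saline; over all genes tested they were 2 (0 higher, 2 lower), 3 (0 higher, 3 lower), 7 (7 higher, 0 lower) and 0, few enough that most settings moved them. They became 138, 100, 159 and 30 with library size alone (76, 61, 115 and 16 of them higher), 120, 73, 178 and 106 without the low-count filter, 166, 100, 269 and 173 with DESeq2, and 37, 21, 145 and 38 under keratinocyte marker scaling, which was added after seeing the data. Limma voom called 1 in the first comparison and 0 in the third, and fitting only the groups compared called 407 in the third. Without UVB-Saline 3 and UVB-hCOL3A1 3 together they were 15, 5, 91 and 26. Leaving out 1 library at a time gave 0 to 69, 0 to 12, 0 to 242 and 0 to 78, with the highest counts of the first and second without UVB-Saline 1 and those of the other two, both with UVB-hCOL3A1 on top, without UVB-Saline 3.

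Of the 10 desmosome genes, 1 was called in UVB-hCOL3A1 against NoUVB without the filter, with DESeq2 and with only those groups, and 0 under each other setting and without each single library. Over all genes tested, those settings called 178 of 35553, 269 of 15545 and 407 of 16499, in the same order. The number whose UVB-hCOL3A1 libraries all lay below UVB-Saline was 9 with TMM scaling, 7 with library size alone and 3 under keratinocyte scaling. The share of all genes was 8.33% with TMM scaling and 1.33% under keratinocyte scaling, and none was computed for library size alone. This is the comparison that picked Dsc1 and Perp, so nothing is read from these counts. With replicate numbers as a block, 51, 61, 118 and 74 genes were called and no desmosome gene; the numbers mark no stated pairing, and correlations of same-numbered libraries between groups ran from 0.0181 to 0.410, so they were not treated as pairs.

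Differences near 0 changed sign. With library size alone, Pkp1, Jup and Perp were at -0.040, -0.019 and -0.059 in irradiated skin against NoUVB and Dsg3 at -0.0047 in UVB-Saline against NoUVB. The median of all genes was then at -0.082 in the first of these comparisons and -0.040 in the second. With TMM scaling that median was at 0.0026 and 0.011. Under keratinocyte scaling Dsc1 and Dsg3 were at 0.057 and 0.011 in irradiated skin, and Dsg1b, Pkp1 and Jup at 0.16, 0.0064 and 0.11 in UVB-hCOL3A1 against NoUVB. Without the UVB-Saline 3 and UVB-hCOL3A1 3 libraries, Pkp1 was at -0.024 in irradiated skin, and Dsg3 and Dsp at -0.0055 and 0.023 in UVB-Saline against NoUVB. Without single libraries Dsg3 ranged from -0.14 to 0.00050 and Perp from -0.057 to 0.12 in irradiated skin. In UVB-Saline against NoUVB, Dsg1a ranged from -0.053 to 0.20, Dsc3 from -0.0034 to 0.066, Dsg3 from -0.031 to 0.11 and Dsp from -0.12 to 0.023, and in UVB-hCOL3A1 against NoUVB Dsg1b ranged from -0.14 to 0.049. In UVB-hCOL3A1 against UVB-Saline, Dsc2 ranged from -0.20 to 0.075 without single libraries and was at 0.13 without both replicate 3 libraries and 0.12 under keratinocyte scaling. The log2 ratio of Dsg1a plus Dsg1b to Dsg3 in irradiated skin ranged from -0.11 to 0.12. The cause of these shifts was not tested.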
